A study of Saccharomyces cerevisiae with 21 samples.

Results

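The transcriptomes of a pair of budding yeast (Saccharomyces cerevisiae) strains, each with a single change in SPT6, were set against each other: spt6-KK over spt6-R. They hold 6 of the 21 RNA-seq libraries of the series, 3 per strain, and were chosen by their labels alone. The other libraries used here are those of spt6-R,KK, which joins both changes, and of the wild type (WT), 3 each; the series also has 3 RPB1 mutant strains, whose libraries entered the model for the spread between replicates. Every culture was growing in log phase at 30 °C in rich medium when RNA was taken. The residues behind R and KK are not in the labels. Nor is it stated whether a strain's libraries come from different cultures: all p-values rest on the spread among libraries, which could be technical.

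Spt6 accompanies RNA polymerase II along genes, holds histones and puts nucleosomes back behind the enzyme. Its paired SH2 domains, named in the title of the study, grip a phosphorylated linker in the largest polymerase subunit, Rpb1, next to the C-terminal repeats. Yeast cells that lose Spt6 function start transcription inside genes and lose control of several genes that are governed by transcription through their promoters. The comparison of both single mutants asks which transcripts tell them apart.

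Counts over full genes summed to between 6584254 and 7729008 per spt6-KK library and between 5779941 and 7197503 per spt6-R library. Replicate libraries varied with a biological coefficient of 0.154 across the series. In log2 CPM (counts scaled per library to a common total by TMM) spt6-KK library 1 correlated at 0.982 and 0.983 with spt6-KK libraries 2 and 3, and at 0.991 with spt6-R library 1; libraries 2 and 3 of spt6-KK correlated at 0.993 with each other. Libraries of the same number deviated from their strain means together, with correlations of 0.41, 0.38 and 0.23 for numbers 1, 2 and 3. Counts of calls are therefore also given, over all genes and for some groups, from a fit with the library number as a block.

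Of 5618 genes tested, 276 were called different (4.91%; edgeR quasi-likelihood test, false discovery rate, FDR, under 0.05): 204 were higher in spt6-KK (3.63%) and 72 lower (1.28%). The genes that were higher had a median log2 fold change of 0.68 and those that were lower one of -0.48, against 0.03 over all genes tested. The change reached 2-fold in 19 genes that were higher and 5 that were lower. The lowest FDR was 0.00773, held by FLO11, CUS1 and GIM4, which were also the only genes under an FDR of 0.01. CPM did not overlap between the strains for 2069 genes (36.8% of those tested), among them 271 of the 276 called. With the block 439 genes were called (7.81%), 317 higher (5.64%) and 122 lower (2.17%), and all 276 were among them. The authors' other counts, sense reads over the middle 70% of each gene, gave 161 calls (2.84%), 116 higher (2.05%) and 45 lower (0.794%), of which 151 were shared.

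**Figure D1:**
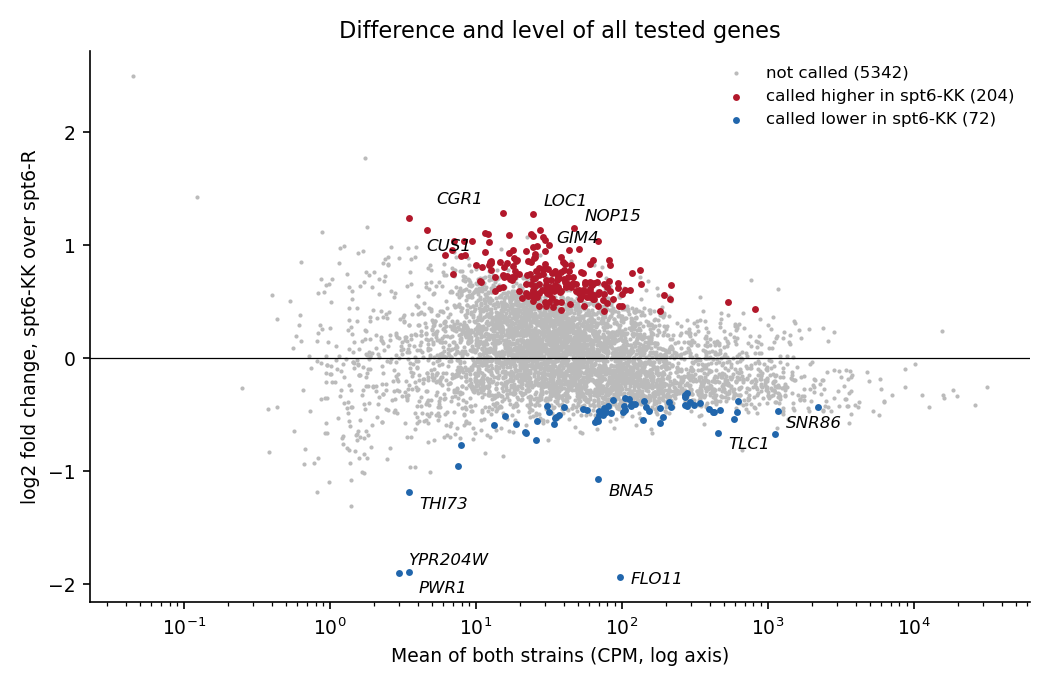
Each point is 1 of 5618 tested genes, with the mean of both strains in CPM on a log axis across and the log2 fold change of spt6-KK over spt6-R up. The 204 genes called higher in spt6-KK sit mostly at middle levels, the 72 called lower reach to higher levels, and FLO11, PWR1 and YPR204W lie farthest below 0.

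The number of calls rested on single libraries. Without spt6-KK library 2, spt6-KK library 3 or spt6-R library 2, edgeR called 0 genes, although 1074, 1024 and 1223 had an unadjusted p under 0.05. Without spt6-R library 1 it called 9 genes and without spt6-R library 3 it called 1, FLO11. Without spt6-KK library 1 it called 806. All 276 genes kept their direction in each of the 15 other fits that were run; they had been picked for that direction, and the fits share libraries.

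**Figure D2:**
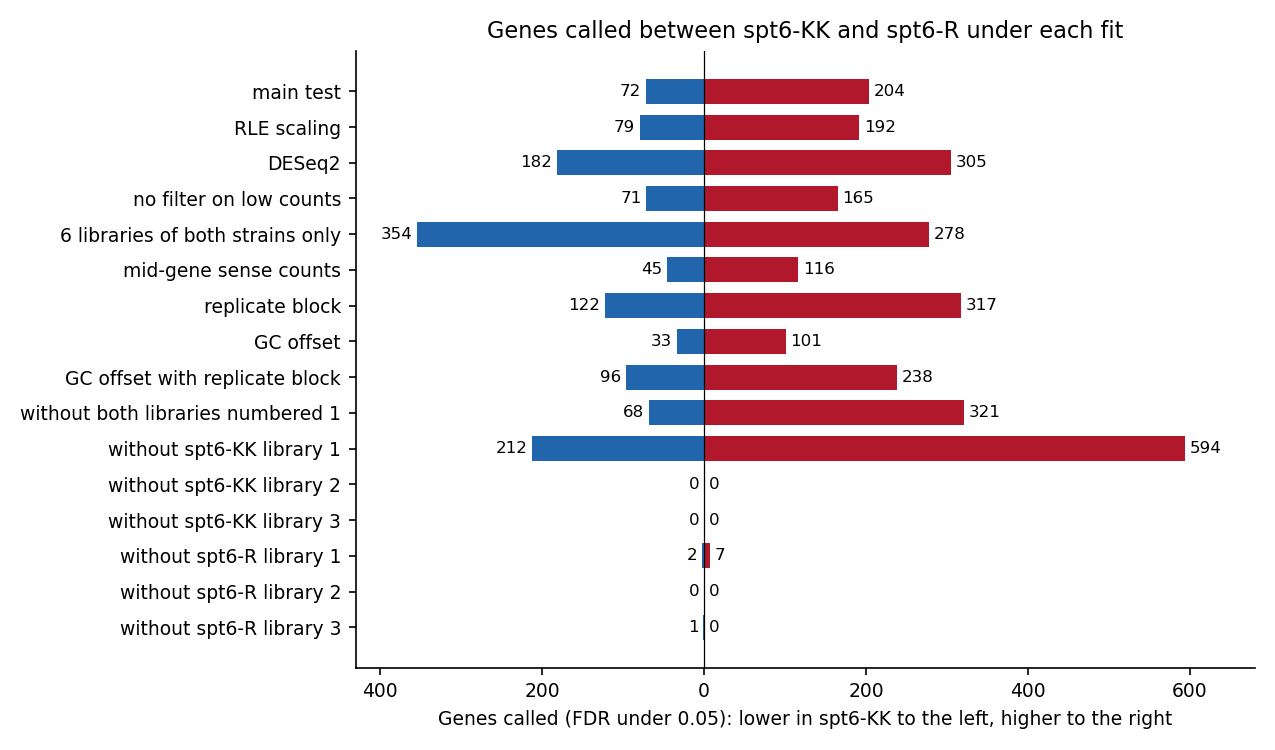
Bars to the right count genes called higher in spt6-KK and bars to the left genes called lower, at an FDR under 0.05, in the main test and 15 other fits. The count ran from 0 without spt6-KK library 2 or 3 or spt6-R library 2 to 594 higher and 212 lower without spt6-KK library 1.

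Genes for making ribosomes were higher in spt6-KK, and their list had the highest median of the 50 lists described. Of the 57 tested genes on a ribosome biogenesis list, 14 were higher in spt6-KK and 0 lower (24.6%, against 3.63% of all genes), with a median log2 fold change of 0.41; 50 of the 57 estimates lay above 0. The mid-gene counts called 9 of them higher (against 2.05% of all genes) and the GC correction, described at the end, 6 (against 1.81%). Among the 12 largest rises over all called genes, NOP15 is on the list. Several others that are not on it also serve ribosomal RNA or ribosome assembly. They include CGR1, a nucleolar protein of pre-ribosomal RNA processing, LOC1, which serves large-subunit assembly and the localisation of ASH1 mRNA, and RRP14, RRP15 and FCF2, which, like NOP15, act in maturing the ribosomal subunits. POP4, a subunit of RNase P and RNase MRP, and LRP1, a partner of the nuclear exosome, belong to the same 12.

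CGR1 (YGL029W) had 14.9, 24.99 and 25.4 CPM in the spt6-KK libraries, against 6.41, 11.2 and 9.22 CPM in the spt6-R libraries. The groups did not overlap, and spt6-KK library 1 lay closest to spt6-R. The difference was 2.44-fold, a log2 fold change of 1.29 ± 0.27 (SE; FDR 0.0368). LOC1 (YFR001W) had 22.5, 38.4 and 44.1 CPM in spt6-KK, against 11.5, 19.2 and 12.8 CPM in spt6-R, a log2 fold change of 1.28 ± 0.30 (FDR 0.0393). NOP15 (YNL110C) had 41.6, 75.8 and 78.3 CPM in spt6-KK, against 29.3, 26.3 and 31.9 CPM in spt6-R, a log2 fold change of 1.155 ± 0.26 (FDR 0.0368). In each of these genes library 1 of spt6-KK was the lowest of its strain and still above all spt6-R libraries. The other members of the 12 ran from a log2 fold change of 1.07 for GIM4 to 1.24 for YAL037W, a gene of unknown function. EBP2 (1.03 ± 0.27), NOP53 (0.97 ± 0.22) and NOP16 (0.95 ± 0.27), which all serve the assembly of the large subunit, followed on the list.

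Many such genes carry a PAC element, the target of the repressors Dot6 and Tod6, and an RRPE element, the target of Stb3. The windows from 250 to 51 bases before the start codon of 4 of these genes, picked because they hold both elements, and of CUS1, which is higher too but holds neither, are shown so that the elements can be seen in place. Of the others among the 12 with such roles, RRP14 holds both cores, FCF2 the RRPE core alone, LRP1 the PAC core alone and POP4 neither. Capitals mark the PAC core GATGAG on either strand (its complement reads CTCATC) and the RRPE core AAAATTTT, which reads the same on both strands; all are on the R64 (sacCer3) genome and run 5′ to 3′ toward the gene. The windows are chrVII:439813-440012 (plus strand) for CGR1, chrVI:148860-149059 (plus) for LOC1, chrXIV:418539-418738 (minus) for NOP15, chrXVI:818073-818272 (plus) for RRP15 and chrXIII:751291-751490 (minus) for CUS1.
CGR1: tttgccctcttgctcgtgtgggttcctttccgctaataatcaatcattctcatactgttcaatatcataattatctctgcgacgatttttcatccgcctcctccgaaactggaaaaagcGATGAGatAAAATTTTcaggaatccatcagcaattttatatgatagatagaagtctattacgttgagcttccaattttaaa
LOC1: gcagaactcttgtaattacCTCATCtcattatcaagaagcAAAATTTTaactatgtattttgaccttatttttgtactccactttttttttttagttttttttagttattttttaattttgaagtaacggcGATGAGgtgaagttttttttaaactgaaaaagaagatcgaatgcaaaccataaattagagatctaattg
NOP15: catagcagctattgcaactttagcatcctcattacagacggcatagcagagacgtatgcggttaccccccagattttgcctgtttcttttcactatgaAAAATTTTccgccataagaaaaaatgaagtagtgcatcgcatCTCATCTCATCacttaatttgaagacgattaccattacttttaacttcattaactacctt
RRP15: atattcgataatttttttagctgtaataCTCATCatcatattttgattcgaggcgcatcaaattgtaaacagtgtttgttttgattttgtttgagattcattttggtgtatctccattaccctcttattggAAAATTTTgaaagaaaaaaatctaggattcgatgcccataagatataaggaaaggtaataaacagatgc
CUS1: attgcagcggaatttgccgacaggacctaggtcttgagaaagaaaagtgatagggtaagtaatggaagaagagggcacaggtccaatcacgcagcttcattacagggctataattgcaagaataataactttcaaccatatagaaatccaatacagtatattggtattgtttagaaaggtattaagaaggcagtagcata
CGR1 has both cores next to each other, LOC1 and NOP15 have more than 1 PAC core each, and in RRP15 the cores stand apart.

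Over 5475 protein-coding genes with such a window, 15.3% hold a PAC core, 8.51% an RRPE core and 4.13% both. On the ribosome biogenesis list the shares were 94.7%, 80.7% and 78.9%. Of the 204 genes called higher, 27.5% held the PAC core, 22.1% the RRPE core and 16.7% both, and of the 68 called lower that have a window, 14.7%, 2.94% and 0%. The 226 genes with both cores had a median log2 fold change of 0.33. Of these, 34 were called higher (15%, against 3.73% of the 5475) and 0 lower. The block gave 43 higher and 2 lower, the mid-gene counts 21 higher and the GC correction 16. Over all genes tested these fits called 5.64%, 2.05% and 1.81% higher. The 181 of the 226 that are not on the list had a median of 0.32 and 26 calls (14.4%), all higher. With the block, 35 of the 181 were higher and 2 lower. The 181 still include CGR1, LOC1, RRP14 and RRP15, which also serve ribosomal RNA or ribosome assembly. Genes with the PAC core alone (610) had a median of 0.09, those with the RRPE core alone (240) one of 0.05 and those with neither (4399) one of 0.01. In that order, 3.61%, 4.58% and 3.11% were called higher, and 10, 2 and 56 genes lower. Some neighbouring genes share a window because they run in opposite directions, and a match is a string of letters, not a bound site.

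By library, the median member of the ribosome biogenesis list lay at -0.38, -0.08 and -0.03 relative to the WT mean in spt6-KK libraries 1, 2 and 3 (log2 of CPM + 0.5), against -0.53, -0.55 and -0.51 in spt6-R. The strains did not overlap, but WT library 1 lay at -0.27, below the other WT libraries at 0.09 and 0.18, as library 1 did in spt6-KK. In spt6-R,KK the list lay at -0.68, -0.70 and -0.49. In the fits against WT, which share the WT libraries, the list's median log2 fold change was -0.18 in spt6-KK and -0.54 in spt6-R. NOP15 stood at 0.18 ± 0.25 against WT in spt6-KK (FDR 0.665) and at -0.97 ± 0.26 in spt6-R (FDR 0.0294), and POP4 at 0.12 ± 0.25 in spt6-KK (FDR 0.777) and -0.99 ± 0.28 in spt6-R (FDR 0.0354). The RefSeq annotation has 56 experimentally annotated terms with 60 or more tested genes. Their highest median belonged to the nucleolus, 0.40 over 225 genes, a term picked after its value was seen. Of the 225, 39 were called higher (17.3%, against 3.63% of all genes) and 0 lower. The block gave 53 of the 225 higher and 2 lower, the mid-gene counts 29 higher and the GC correction 17. Over all genes these fits called 5.64%, 2.05% and 1.81% higher.

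**Figure D3:**
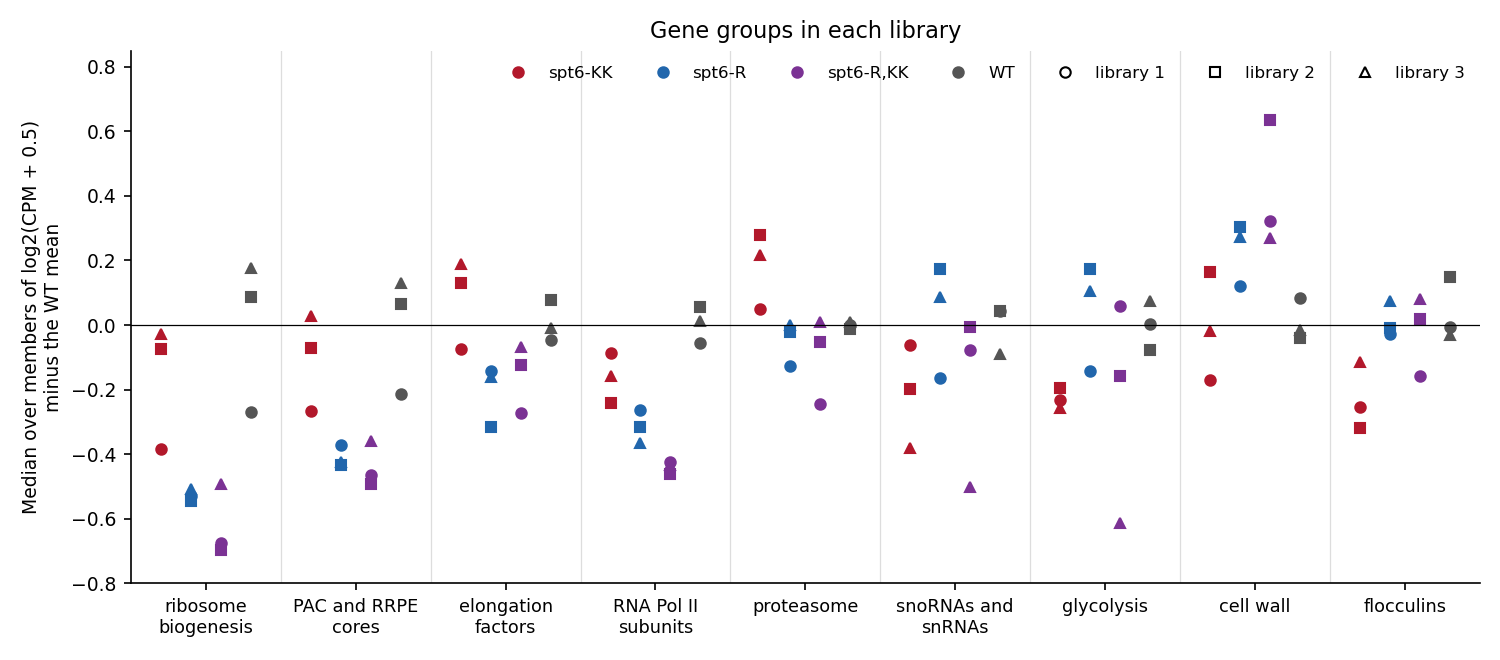
Each point is 1 library and gives the median over a gene group of log2(CPM + 0.5) minus the WT mean, for spt6-KK, spt6-R, spt6-R,KK and WT; shapes mark the library number. Ribosome biogenesis genes lie between -0.38 and -0.03 in spt6-KK and between -0.55 and -0.51 in spt6-R, while glycolysis genes lie between -0.26 and -0.20 in spt6-KK and between -0.14 and 0.17 in spt6-R.

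The transcription machinery itself was higher in spt6-KK at some of its genes. Of 12 RNA polymerase II subunit genes 4 were higher and 0 lower: RPB5, shared by all nuclear polymerases, RPB4, RPB10 and RPB3 (33.3%, against 3.63% of all genes; 2 by mid-gene counts). The list's median was 0.16, with 8 estimates above 0 and 4 below. CPM lay above spt6-R without overlap in 5 of the 12 genes and below it in 2. RPB5 (YBR154C) had 85.2, 111 and 108 CPM in spt6-KK, against 65.6, 56.6 and 66.9 CPM in spt6-R, a log2 fold change of 0.69 ± 0.14 (FDR 0.0368). Its WT mean was 88.1 ± 4.64 CPM (SD, n = 3), between both mutants. Of 41 elongation factors and histone chaperones 4 were higher and 0 lower (9.76%, against 3.63% of all genes), with a median of 0.32, or 0.18 without spt6-KK library 3. The block gave 7 higher, and the mid-gene counts and the GC correction 2 each. Over all genes these fits called 5.64%, 2.05% and 1.81% higher. SPN1, the direct partner of Spt6, had a log2 fold change of 0.72 ± 0.19, CTK2, a subunit of a kinase of the polymerase's C-terminal repeats, 0.70 ± 0.16, RTF1 of the Paf1 complex 0.66 ± 0.18 and DST1, which rescues stalled polymerase, 0.60 ± 0.16 (FDR 0.0368 to 0.0438). RPC11 of polymerase III (0.90 ± 0.18) and RPA34 of polymerase I (0.58 ± 0.15) were the called genes among 19 subunits of those enzymes, both higher (10.5%).

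RPO21, which encodes Rpb1, had 464, 423 and 461 CPM in spt6-KK, against 564, 556 and 589 CPM in spt6-R, a log2 fold change of -0.34 ± 0.12 that missed the threshold (FDR 0.0874). SPT6 (YGR116W, chromosome VII, 720409 to 724764) had 153, 217 and 204.5 CPM in spt6-KK, against 137, 143 and 150.4 CPM in spt6-R and a mean of 267 ± 30.1 CPM in WT. The strains did not overlap, yet library 1 of spt6-KK lay near spt6-R, and the log2 fold change of 0.42 ± 0.16 did not pass (FDR 0.0994; 0.0311 without spt6-KK library 1). None of the 5 tested genes on either side of SPT6 was called; the highest estimate was that of YGR111W (0.49 ± 0.15, FDR 0.0564, and 0.0406 with the block) and the lowest that of MEP1, an ammonium permease gene (-0.43 ± 0.23).

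Other genes that were higher included CUS1 (YMR240C), a protein of the U2 snRNP in splicing. It had 15.4, 17.2 and 17.4 CPM in spt6-KK, against 8.18, 7.26 and 7.86 CPM in spt6-R, and the mean was 8.27 ± 1.29 CPM in WT. Here the 3 spt6-KK libraries lay close together. The log2 fold change over WT was 0.99 (FDR 0.0013) in spt6-KK and -0.11 (FDR 0.789) in spt6-R, and that of spt6-KK over spt6-R was 1.10 ± 0.18 (FDR 0.00773). GIM4, a prefoldin subunit that helps actin and tubulin fold, had 33.2, 39.8 and 45.6 CPM in spt6-KK, against 19.2, 16.9 and 19.9 CPM in spt6-R, a log2 fold change of 1.07 ± 0.17 (FDR 0.00773). SCM3, the chaperone of the centromeric histone Cse4, rose by 1.14 ± 0.28 on the log2 scale, with 5.68, 6.25 and 7.34 CPM in spt6-KK, against 2.56, 2.42 and 3.63 CPM in spt6-R. CSE4 itself had a log2 fold change of 0.79 ± 0.25 (FDR 0.0613, and 0.036 with the block).

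Of 11 histone genes 1, HHT1, was higher (9.09%, against 3.63% of all genes) and 0 lower. The list's median was 0.24, with 7 estimates above 0 and 4 below. HHT1 had 230.1, 241 and 229 CPM in spt6-KK, against 150.2, 169.6 and 155 CPM in spt6-R (0.56 ± 0.14, FDR 0.0393). Its WT mean was 235 ± 18.8 CPM, level with spt6-KK (-0.01, FDR 0.971) and above spt6-R (-0.57, FDR 0.0174). HTA2 (0.55 ± 0.16) passed with the block (FDR 0.0282) and missed without it (0.0512), while HTB1 (0.11), HTB2 (-0.14) and HTA1 (-0.14) were near 0. HHT1 and HTA2 have near-identical partner genes, so their reads are hard to assign. Of 34 proteasome genes 2 were higher, RPN8 (0.75 ± 0.17) and RPT4 (0.46 ± 0.12), a share of 5.88% against 3.63% of all genes, and 28 of the 34 estimates were above 0. The block gave 7 higher (against 5.64% of all genes) and the mid-gene counts 1. Of 138 cytosolic ribosomal protein genes 2 were higher, RPS6A (0.50 ± 0.11) and RPL31A (0.43 ± 0.12), and 0 lower (1.45%, below the 3.63% of all genes), with a median of 0.01; by mid-gene counts RPS6A and RPL31A each had an FDR of 0.0545. Against WT the ribosomal protein genes had a median of -0.41 in spt6-KK and -0.40 in spt6-R. Mitochondrial ribosomal proteins had 3 of 73 called, all higher, a share of 4.11% that is near the 3.63% of all genes; MRPS17 had 0.96 ± 0.21.

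**Figure D4:**
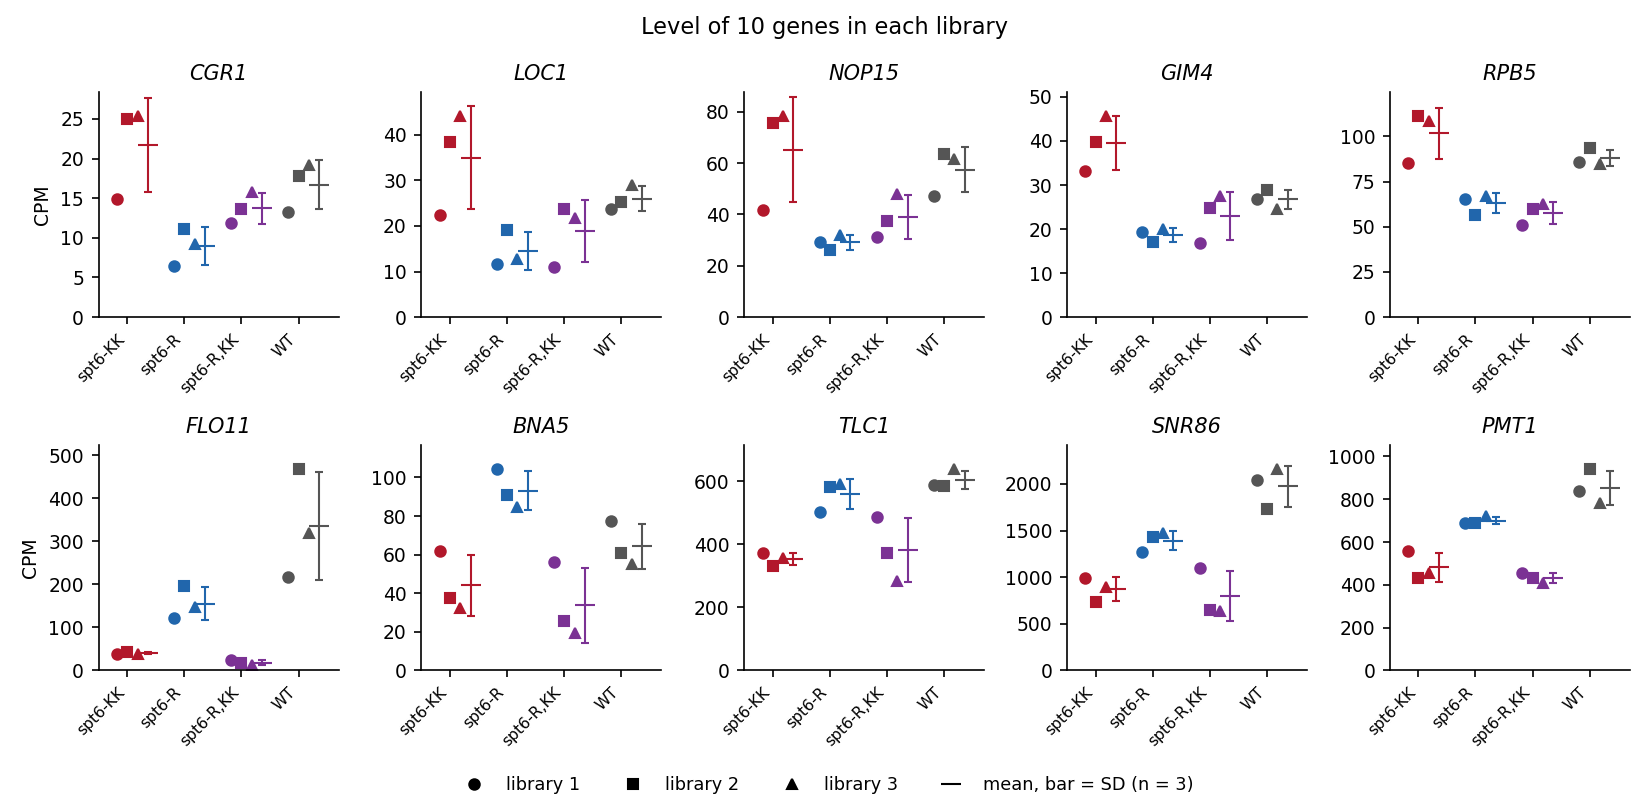
CPM of 10 genes in each library of spt6-KK, spt6-R, spt6-R,KK and WT, with the mean and its SD over 3 libraries; all axes start at 0. CGR1, LOC1, NOP15, GIM4 and RPB5 are higher in spt6-KK than in spt6-R without overlap, with library 1 of spt6-KK the lowest of its strain, and FLO11, BNA5, TLC1, SNR86 and PMT1 are lower without overlap.

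FLO11 (YIR019C, chromosome IX, 389572 to 393675, minus strand), a cell-surface flocculin needed for filamentous and invasive growth, gave the largest fall. It had 38.4, 43.7 and 38.9 CPM in spt6-KK, against 121, 196 and 148 CPM in spt6-R, and 217.9, 467 and 319 CPM in WT. Every spt6-KK library lay below every spt6-R library, and these below the WT libraries. The log2 fold change was -1.94 ± 0.29 (FDR 0.00773) by full-gene counts and -1.38 (FDR 0.037) by mid-gene sense counts. In spt6-R,KK the mean was 17.9 CPM. Since RNA came from whole cultures, fewer cells that express a gene and less RNA per cell cannot be told apart. PWR1 (chromosome IX, 395999 to 396939, plus strand), a noncoding RNA from the region upstream of FLO11, was lower too, with 0.631, 1.77 and 2.02 CPM in spt6-KK, against 4.33, 7.26 and 4.84 CPM in spt6-R. Its log2 fold change was -1.89 ± 0.46 (FDR 0.0393), and -1.87 by sense counts, which matter here since the annotation has ICR1, another noncoding RNA, on the opposite strand. Of 20 flocculin and filamentous growth genes these 2 were called (10%, against 1.28% of all genes), with a median of -0.24 over the list. Both lie at the FLO11 locus, so the share rests on that locus. The block and the mid-gene counts each gave 3 lower and the GC correction 2.

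Of 16 genes of NAD synthesis 2 were lower and 0 higher (12.5%, against 1.28% of all genes lower), with a median of -0.30, or -0.18 without spt6-KK library 3. The block gave 4 lower, whereas the mid-gene counts and the GC correction called 0 of the list. The GC correction with the block gave 1 lower. BNA5, kynureninase, had 62.1, 37.8 and 32.5 CPM in spt6-KK, against 104, 90.9 and 84.6 CPM in spt6-R (-1.07 ± 0.30, FDR 0.0456, and 0.0543 by mid-gene counts). Its FDR was 0.0021 with the block, 0.0627 with the GC correction and 0.00367 with both. BNA2, which opens the tryptophan ring at the start of the pathway, had 6.06, 5.57 and 5.91 CPM in spt6-KK, against 11.4, 9.68 and 8.92 CPM in spt6-R (-0.77 ± 0.20, FDR 0.0434, and 0.0645 by mid-gene counts). For BNA2 the FDR was 0.0368 with the block, 0.106 with the GC correction and 0.104 with both. Neither gene was called against WT in either strain: the estimates were -0.55 for BNA5 and -0.35 for BNA2 in spt6-KK, and 0.53 for BNA5 and 0.42 for BNA2 in spt6-R.

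Stable noncoding RNAs were lower at 3 of 82 small nucleolar, nuclear and related RNAs (3.66%, against 1.28% of all genes) and higher at 0, with a median of -0.20 and 63 estimates below 0; without spt6-R library 1 the median was -0.30. TLC1, the RNA of telomerase, had 371, 333 and 358 CPM in spt6-KK, against 504, 583 and 591 CPM in spt6-R (-0.66 ± 0.14, FDR 0.0368). SNR86, a guide RNA for pseudouridine, had 989.5, 737 and 891 CPM in spt6-KK, against 1273, 1428 and 1472 CPM in spt6-R (-0.67 ± 0.19, FDR 0.0456), with a WT mean of 1974 ± 221 CPM. SNR61 (-0.95 ± 0.21) was the third, and 5 were lower with the block. By library the list's median relative to WT was -0.06, -0.20 and -0.38 in spt6-KK, against -0.17, 0.17 and 0.09 in spt6-R, so the strains overlapped at library 1.

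Among the 528 genes annotated to the endoplasmic reticulum, a term picked after its value was seen, 24 were lower (4.55%, against 1.28% of all genes) and 8 higher (1.52%, against 3.63%), with a median of -0.20 and 387 estimates below 0. The block gave 38 lower, the mid-gene counts 14 and the GC correction 17. By calls the terms plasma membrane, with 4 of 362 lower (1.10%), and cell periphery, with 2 of 262 (0.763%), lay below the share of all genes. Their medians were low too: -0.17 for plasma membrane (261 of 362 estimates below 0) and -0.22 for cell periphery (196 of 262). The block gave 11 lower and 8 higher for plasma membrane, and 11 lower and 5 higher for cell periphery. Over all genes the block gave 2.17% lower, the mid-gene counts 0.794% and the GC correction 0.591%. The GC correction gave 2 lower for plasma membrane and 4 for cell periphery, with 1 higher in each. The 24 include PMT1 (-0.54 ± 0.12), PMT2 (-0.48 ± 0.12) and PMT3 (-0.51 ± 0.12), which attach mannose to proteins, STT3 (-0.45 ± 0.12), the catalytic subunit of N-glycosylation, GPI16 (-0.52 ± 0.13) and GWT1 (-0.42 ± 0.12) of the GPI anchor pathway and SSH1 (-0.38 ± 0.11), a protein translocation channel. PMT1 averaged 483 ± 68.0 CPM in spt6-KK, 700.4 ± 16.7 CPM in spt6-R and 854 CPM in WT (SD, n = 3 each). These genes were named after their values were seen. The other falls among the 12 largest were THI73, a putative transporter gene under thiamine control (-1.19 ± 0.30), ICT1, an acyltransferase of lysophosphatidic acid (-0.73 ± 0.18), FDC1, ferulic acid decarboxylase (-0.66 ± 0.19), and TAX4 (-0.66 ± 0.19). YPR204W (-1.90 ± 0.52, FDR 0.0444), a subtelomeric gene with near-identical copies, was high in 1 library of spt6-R: it had 1.51, 0.951 and 1.30 CPM in spt6-KK, against 8.98, 2.05 and 3.02 CPM in spt6-R, and sense counts gave -0.33 (FDR 0.51).

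Several lists lay low in spt6-KK without a member called by edgeR. Glycolysis and fermentation genes had a median of -0.33, and 23 of 25 estimates were below 0; 16 of the 25 had CPM below spt6-R without overlap, read against 36.8% of all genes that did not overlap in either direction. Cell wall and mannoprotein genes had a median of -0.32 (28 of 34 below 0), fatty acid and phospholipid synthesis -0.32 (17 of 20), hexose transporters -0.37 (15 of 18) and general stress genes -0.24 (33 of 40). In these 5 lists, 10 of 25, 12 of 34, 12 of 20, 3 of 18 and 4 of 40 genes had an unadjusted p under 0.05. Over all genes tested these were 1633 of 5618. DESeq2 called 3, 2, 2, 1 and 1 in the lists, and 487 over all genes. Without spt6-R library 2 the median was -0.21 for glycolysis, -0.12 for hexose transporters and -0.01 for general stress genes. With the GC correction the medians of glycolysis and cell wall genes were -0.14 and -0.15. General stress genes were above WT in both mutants, at a median of 0.54 in spt6-KK and 0.74 in spt6-R, and the strains overlapped by library (0.53, 0.71 and 0.34 in spt6-KK, against 0.41, 1.05 and 0.60 in spt6-R).

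Genes known for control by upstream transcription or start-site choice had no call between the mutants. SER3, repressed by transcription through its promoter, had 580.1, 980.5 and 926 CPM in spt6-KK, against 526.5, 985 and 896.5 CPM in spt6-R (0.05 ± 0.27, FDR 0.925), with a WT mean of 148 CPM. IMD2, whose start site depends on guanine nucleotides, had 322, 407 and 389 CPM in spt6-KK, against 307, 373 and 383 CPM in spt6-R (0.07 ± 0.15, FDR 0.78), with a WT mean of 39.0 CPM. In both genes library 1 of each strain was the lowest. Of the 9 genes on that list 0 were called by edgeR and 0 by DESeq2, 1 with an unadjusted p under 0.05, and the estimates ran from -0.32 for URA2 to 0.22 for FCY1. Of 11 genes with known cryptic internal promoters 0 were called by edgeR (4 at an unadjusted p under 0.05) and 2 by DESeq2, and the median was 0.32, or 0.20 without spt6-KK library 2 and 0.21 without spt6-R library 3; AVO1 (0.50 ± 0.15, FDR 0.0526) passed with the block (0.0373), OMS1 (0.56 ± 0.17, FDR 0.0593) did not pass, and FLO8 had 0.18 ± 0.15. Of 22 phosphate genes 0 were called by edgeR (4 at an unadjusted p under 0.05) and 1 by DESeq2, with estimates from -0.71 for PHM6 to 0.78 for PHM8, a phosphatase gene. Over all 5618 genes tested, 1633 had an unadjusted p under 0.05 and DESeq2 called 487.

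Mating type markers matched in both strains. The a-specific receptor gene STE2 had a mean of 835 CPM in spt6-KK and 925 CPM in spt6-R, and the alpha-specific receptor gene STE3 a mean of 3.52 CPM in spt6-KK and 5.91 CPM in spt6-R, the pattern of type a cells. All 7 a-specific and all 4 alpha-specific estimates were below 0; edgeR and DESeq2 called 0 of them, and 1, STE3, had an unadjusted p under 0.05. MFA1 had a log2 fold change of -0.22 ± 0.25 and STE3 -0.74 ± 0.31 (FDR 0.128). TRP1, a nutritional marker nearly silent in WT (0.74 CPM), had a mean of 21.8 CPM in spt6-KK and 21.2 CPM in spt6-R, a log2 fold change of 0.04 ± 0.14 (FDR 0.882). Whether WT differs from both mutants in more than SPT6 was not tested, and all values against WT would carry such a difference. HO had 0.42 ± 0.18 (FDR 0.131).

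Against WT, with the same libraries, 739 genes were called in spt6-KK (13.2%) and 459 in spt6-R (8.17%). The 204 genes higher in spt6-KK than in spt6-R had a median log2 fold change of 0.41 over WT in spt6-KK and -0.30 in spt6-R, while over all genes tested the medians were 0.05 in spt6-KK and -0.02 in spt6-R. In spt6-R,KK the same genes stood at -0.07. The 72 lower genes had medians of -0.48 in spt6-KK, 0.04 in spt6-R and, for comparison, -0.25 in spt6-R,KK. No gene called between the mutants was called in opposite directions against WT. Since these comparisons share libraries with the one that picked the genes, the medians are a description.

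The difference varied with base composition and level, which the choice of samples did not use. Over 8 equal bins of gene GC content, the median log2 fold change was 0.21 in the lowest bin, up to 36.5% GC, and -0.20 in the highest. The lowest bin held 61 genes called higher and 4 lower, and the highest 1 higher and 29 lower. Median GC content was 37.6% in the genes called higher, 42.5% in those called lower and 39.6% in all. The called gene of lowest GC content among the higher ones named and that of highest among the lower ones, taken from genes without introns, show the contrast. The first 120 coding bases of NOP53 (chrXVI:277410-277529, minus strand, R64), and of CAR2 (chrXII:1012501-1012620, plus strand), ornithine aminotransferase, which was lower (-0.53 ± 0.15), are shown with G and C in capitals. Both calls were lost with the GC correction, where NOP53 had a log2 fold change of 0.78 (FDR 0.051) and CAR2 one of -0.20 (FDR 0.402). With the block as well, NOP53 passed (0.76, FDR 0.0336) and CAR2 did not (-0.20, FDR 0.378).
NOP53: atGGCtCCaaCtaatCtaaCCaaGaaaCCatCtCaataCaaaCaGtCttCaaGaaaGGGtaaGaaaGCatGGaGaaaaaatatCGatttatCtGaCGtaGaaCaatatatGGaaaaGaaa
CAR2: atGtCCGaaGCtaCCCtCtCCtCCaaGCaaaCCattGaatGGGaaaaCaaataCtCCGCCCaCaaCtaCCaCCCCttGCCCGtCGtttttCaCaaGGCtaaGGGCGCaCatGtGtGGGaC
G and C make up 33.3% of the bases shown of NOP53 and 52.5% of those of CAR2.

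The slope of log2 CPM on GC content separated the libraries of both strains. Per 10 points of GC it was -0.12, -0.26 and -0.31 in spt6-KK libraries 1, 2 and 3, against 0.04, 0.11 and 0.08 in spt6-R and 0.02, -0.08 and 0.00 in WT. Within the other strains its range was widest in rpb1-TPY,FSP, at -0.16, 0.20 and 0.12, and in spt6-R,KK, at 0.23, 0.22 and -0.03. When each library's trend on GC content was taken out, 134 genes were called (2.4%), 101 higher (1.81%) and 33 lower (0.591%), and 109 of the 134 were among the 276. With the block as well, 334 were called (5.98%), 238 higher (4.26%) and 96 lower (1.72%), and 188 of the 334 were shared. Under that correction 6 of the 57 ribosome biogenesis genes were higher, or 10 with the block, at a median of 0.38. Of the 60 called genes that the naming rule picked, 36 passed and 24 did not. With the block as well, 47 passed and 13 did not. Those that passed both ways include CGR1, LOC1, NOP15, CUS1, GIM4, HHT1, FLO11, TLC1 and SNR86. The 24 lost without the block are RRP14, POP4, NOP53, NOP16, CTK2, RTF1, RPB10, RPA34, RPL31A, RSM28, RNA14, ARO7, DAL5, BNA5, BNA2, ICT1, FDC1, TAX4, YPR204W, GAL80, THR1, CAR2, NCP1 and TRR1, with an FDR between 0.051 for NOP53 and 0.445 for TRR1. Of these, RRP14, POP4, NOP53, NOP16, CTK2, RTF1, RNA14, ARO7, BNA5, FDC1 and GAL80 passed with the block as well. Highly expressed genes lay low as well: the median was -0.20 in the top of 8 bins of mean level and 0.18 in the second lowest. The part of base composition in the differences was not tested beyond these fits.

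**Figure D5:**
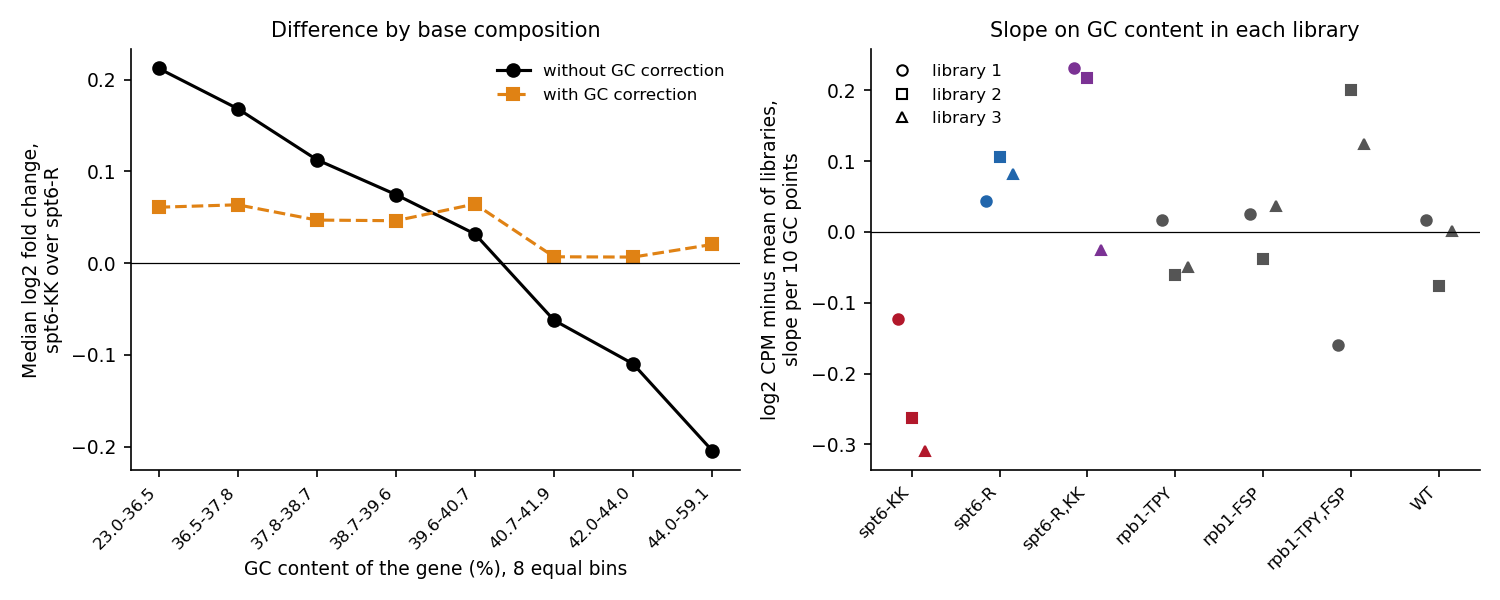
Left, the median log2 fold change of spt6-KK over spt6-R in 8 equal bins of gene GC content, without and with the correction for GC: it is 0.21 in the lowest and -0.20 in the highest bin without it, and lies between 0.01 and 0.06 in all bins with it. Right, the slope of log2 CPM (minus the mean of all libraries) per 10 points of GC in each of the 21 libraries; the spt6-KK libraries lie between -0.31 and -0.12 and the spt6-R libraries between 0.04 and 0.11.

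Medians by nuclear chromosome ran from -0.12 on III to 0.08 on XVI, and between 3.52% (XV) and 7.32% (I) of their genes were called. The 21 mitochondrial genes had a median of 0.20 and 0 calls by edgeR, with 2 at an unadjusted p under 0.05.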

How the data were processed

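RNA was depleted of ribosomal RNA, made into stranded total RNA libraries and read as paired ends, per the labels' protocols. The submitters' processing notes name cutadapt 1.16, STAR 2.6.1b, Subread featureCounts 1.6.3, DESeq2 1.22.2 and the sacCer3 genome. The deposited values are raw counts per gene: per the file headers, the full-gene counts hold all signal in the annotated gene, and the mid-gene counts hold sense reads over the middle 70%. Whether full-gene counting used strand is not given in the sources used here, so overlapping genes are read with the sense counts beside them.

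From the full-gene counts, 5618 of 5823 genes passed edgeR's filter on low counts. They were scaled by TMM and fitted with edgeR 4.0.16 (R 4.3.3) over all 21 libraries with strain as the sole term, tested by quasi-likelihood and adjusted by Benjamini-Hochberg over all genes tested. Standard errors are the log2 fold change divided by the square root of the F statistic. The code was checked on simulated counts. Of the gene IDs, 5716 matched the R64 annotation and 107 did not. No library pair held identical counts.

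Same-numbered libraries of both strains deviated together, at 0.41, 0.38 and 0.23, and every other pairing lay between -0.45 and 0.16. Deviations from a strain mean cancel out within the strain, so the other pairings are partly fixed by the same-numbered ones. From the same-numbered values, the numbers were taken to pair the samples. Blocked counts are printed above for all genes and for some lists and terms only. Elsewhere the block gave 3 higher and 0 lower histone genes, and 4 higher and 0 lower cytosolic ribosomal protein genes. For mitochondrial ribosomal proteins it gave 5 higher and 1 lower. Alternatives were RLE scaling, DESeq2 1.42.0, no filter, a fit on 6 libraries, mid-gene counts, the replicate block and leaving out each library. A correction for GC content (a loess trend per library, with and without the block) and leaving out both libraries numbered 1 were chosen after seeing the data.

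Members and lists were chosen with earlier results of these data known. Named genes are SPT6, RPO21, the 12 largest rises and falls among called genes without overlap and with a mean count of 20 or more in 1 strain, and up to 4 called genes per list; exceptions are marked. Lists are described by counts and medians, with no test.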

Additional observations from a re-analysis of the deposited data

How the results depend on the processing

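The number of calls depended on the fit, and the cause was not tested. Against 276 genes called (204 higher and 72 lower in spt6-KK), DESeq2 called 487 (182 lower), the fit on the 6 libraries of both strains 632 (354 lower), the mid-gene sense counts 161 (116 higher, 45 lower) and the GC correction 134 (101 higher, 33 lower). With the replicate block, 439 were called (317 higher, 122 lower). Without both libraries numbered 1, 321 were called higher. Leaving out 1 library gave between 0 and 806 calls, 0 to 594 higher and 0 to 212 lower. RLE scaling (271) and no filter on low counts (236) stayed within 1.5 times. Higher genes made up 192 of 271 calls under RLE scaling, 305 of 487 under DESeq2 and 278 of 632 in the 6-library fit, so the split toward higher genes turned in that last fit. All 60 called genes that the naming rule picked kept their sign in each alternative that gave a value. The GC correction lost 24 of these calls, or 13 with the block as well. The mid-gene counts lost 23, and leaving out spt6-KK library 2 or 3 lost all 60. PWR1, SCM3, YAL037W and THI73 rest on low levels, under 8 CPM in both strains.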
